A study of Homo sapiens with 2 samples.

Results

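The RAB genes encode the largest branch of the RAS superfamily of small GTPases, the proteins that give each membrane compartment of the cell its identity. Members were the rows of the deposited table whose symbol is RAB followed by digits and at most 1 letter from A to F, leaving out entries described as pseudogenes. This gave 63 genes of the 50464 symbols in the table. RNA sequencing had been done on KASUMI-1, a human myeloid leukaemia line with the RUNX1-RUNX1T1 fusion, infected with lentivirus of either of 2 kinds. One was labelled pccl and serves here as the control, and the other carried USP6, a deubiquitinase. Both groups were the same line grown in the same serum-supplemented medium. The time after infection, the promoter of the construct and the level of the introduced protein are not stated in the labels. With 1 library in each group, differences could not be set against a replicate spread, and no test was made.

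A RAB protein works as a switch. In its GTP-bound form it sits on a membrane through prenyl groups on its C-terminal cysteines and recruits effectors such as tethers, motors and sorting adaptors, and in its GDP-bound form it is drawn back into the cytosol by GDI. Exchange factors switch it on, and GTPase-activating proteins with a TBC domain switch it off. The USP6 protein itself carries a TBC domain beside its protease domain, which is derived from USP32. In myeloid cells RAB proteins are known for uptake by phagocytosis, recycling of receptors and release of granules.

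Coding sequences of RAB7A and of paralogs from 4 families are shown first, since they let a reader see how alike the proteins are and how unlike the messages. Each stretch runs 5′ to 3′ on the coding strand of the principal transcript in GENCODE release 29. Capitals mark the 24 bases that encode the P-loop, the phosphate-binding turn of the GTPase fold, with 18 bases on either side.
RAB5A: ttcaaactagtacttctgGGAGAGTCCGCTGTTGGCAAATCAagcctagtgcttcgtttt
RAB5B: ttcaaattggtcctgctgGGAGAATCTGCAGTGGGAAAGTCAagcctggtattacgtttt
RAB5C: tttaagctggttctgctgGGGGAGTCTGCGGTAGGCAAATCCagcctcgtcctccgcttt
RAB11A: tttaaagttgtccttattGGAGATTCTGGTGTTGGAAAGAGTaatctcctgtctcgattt
RAB11B: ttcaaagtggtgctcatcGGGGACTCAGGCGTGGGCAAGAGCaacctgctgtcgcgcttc
RAB4A: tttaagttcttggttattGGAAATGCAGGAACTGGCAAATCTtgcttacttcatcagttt
RAB4B: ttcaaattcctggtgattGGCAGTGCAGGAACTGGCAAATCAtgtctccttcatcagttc
RAB1A: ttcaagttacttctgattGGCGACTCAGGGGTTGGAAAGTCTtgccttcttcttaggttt
RAB1B: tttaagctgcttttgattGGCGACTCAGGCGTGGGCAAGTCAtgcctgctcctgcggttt
RAB7A: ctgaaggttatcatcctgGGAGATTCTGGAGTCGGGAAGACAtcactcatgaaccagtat
The 60 bases of RAB11A and RAB11B differed at 17 positions, all 17 of them the last base of a codon, and encoded the same residues. RAB5A and RAB5B differed at 14 of 60 bases, 12 of them the last base of a codon, and RAB1A and RAB1B at 12, 9 of them last bases, again with the same residues. RAB4A and RAB4B differed at 11 bases, 8 of them last bases, and the residues of the P-loop itself were not the same. Over the whole coding sequence, identity between paralogs was 72.5% for RAB11A and RAB11B, 72.5% for RAB5A and RAB5B, 77.3% for RAB5B and RAB5C, 72.1% for RAB4A and RAB4B and 74.9% for RAB1A and RAB1B. The share of G or C at the last base of codons was 35.5% in RAB11A and 87.7% in RAB11B.

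The coding 3′ ends carry the cysteines that are prenylated, which tie the RAB genes to the prenylation genes described further on. The last 36 bases before the stop codon are shown, with cysteine codons in capitals.
RAB5A: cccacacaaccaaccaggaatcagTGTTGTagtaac
RAB5B: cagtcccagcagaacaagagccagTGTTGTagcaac
RAB7A: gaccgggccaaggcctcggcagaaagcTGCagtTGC
RAB11A: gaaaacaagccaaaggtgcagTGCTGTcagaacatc
RAB11B: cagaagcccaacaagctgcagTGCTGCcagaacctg
RAB27A: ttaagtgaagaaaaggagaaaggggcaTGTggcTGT
The cysteine codons are adjacent in the RAB5 and RAB11 genes shown and separated by 1 codon in RAB7A and RAB27A. Of 62 members read, 55 had 2 cysteine codons in the last 12 codons and 7 had 1. Any cysteine codon was counted, and which of them encode a prenylated residue was not tested. In RAB6C and RAB6D the only such codon lies near the start of the stretch.

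The libraries held 12306442 counts (pccl) and 12518795 counts (USP6), of which the mitochondrial genome took 49.9% and 45.6%. The USP6 gene itself had 8 counts (pccl) and 70 counts (USP6), and whether these include reads of the construct was not tested. Of 9 genes that mark this line (among them CD33, KIT, MPO and SPI1), all 9 had a mean of at least 1 FPKM (fragments scaled to gene length and library total) over both libraries. Their summed FPKM was 249.6 and 413.1, with MPO at 27.4 and 121.8, SPI1 at 94.0 and 230.4, KIT at 99.3 and 40.0 and CD34 at 12.6 and 4.19. Among markers of other cell types, 1 of 4 T cell genes (CD3E), 1 of 3 B cell genes (CD79A) and 1 of 4 epithelial genes (EPCAM) did so, and none of the erythroid, platelet, stromal or neuronal lists. Summed FPKM went from 1.34 to 5.73 for the T cell list, from 2.68 to 10.6 for the B cell list, from 0.257 to 1.19 for the platelet list, from 0.365 to 0.00579 for the neuronal list and from 17.3 to 8.78 for the epithelial list. Summed FPKM was 0.0796 and 0.0317 for the erythroid list and 0.00626 and 0.0185 for the stromal list. PF4, PPBP, KRT18, KRT19, COL1A2, DCN, SNAP25 and STMN2 had 0 counts in both libraries. The part of these markers, those of the line included, in the RAB values was not tested.

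RAB messages were present from every compartment, and in sum they were lower in the USP6 library. Of the 63 genes, 7 had no count in either library, 23 had counts but a mean under 1 FPKM, and 33 passed that mean and are the ones counted below. The FPKM of all 63 genes added up to 259.9 under pccl and 187.4 under USP6, 1.39-fold lower. In the pccl library the highest levels were those of RAB7A at 48.3 FPKM, RAB10 at 38.5, RAB14 at 21.7 and RAB11B at 21.3, which made up 49.9% of all RAB FPKM. In the USP6 library the order was RAB11B at 35.1 FPKM, RAB44 at 18.6, RAB10 at 18.5 and RAB7A at 14.7, with 46.3% of the total. The leading message was thus that of a late endosome gene in one library and of a recycling gene in the other. RNA came from whole cultures, so a lower level per cell and fewer cells with the message cannot be told apart.

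**Figure D1:**
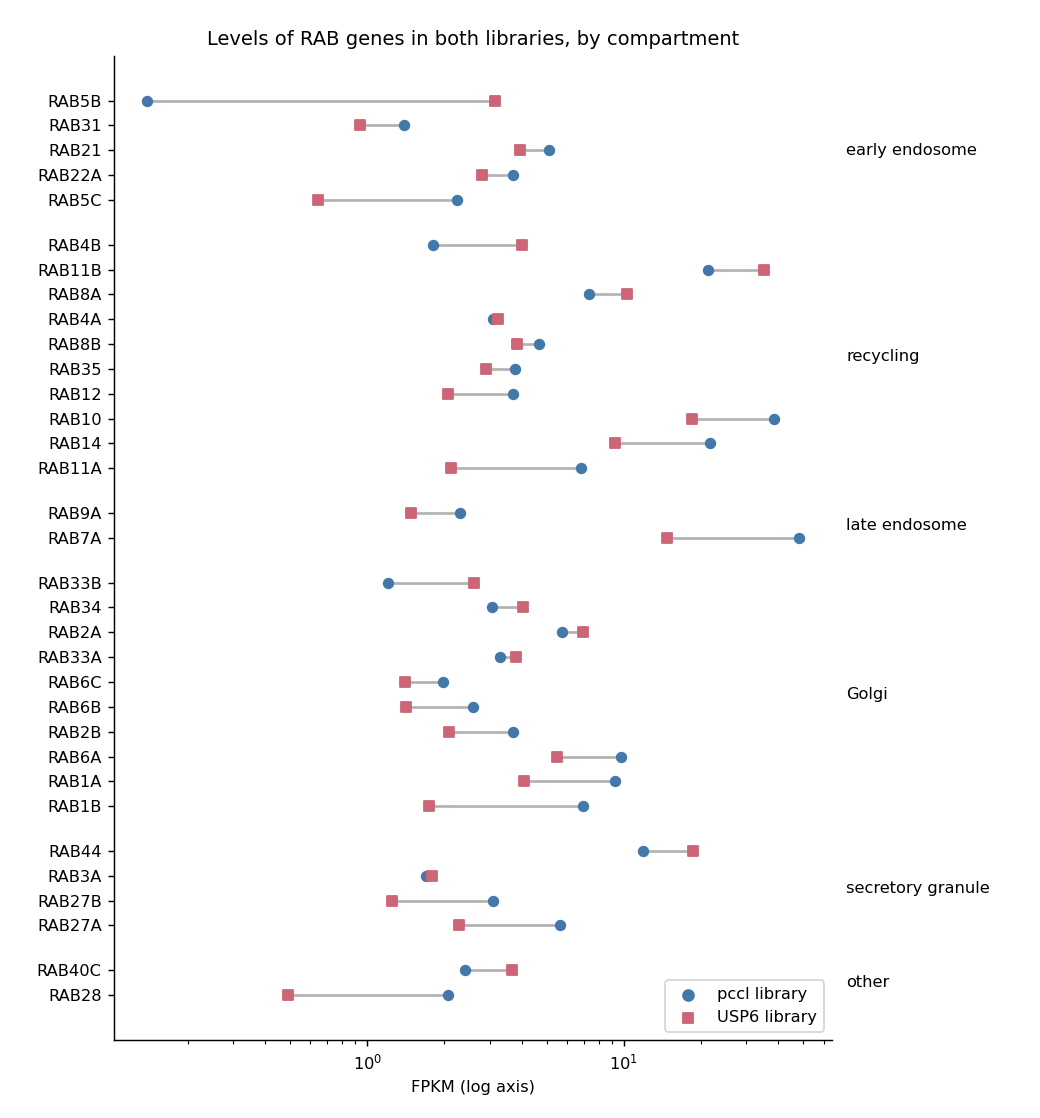
FPKM (log axis) of the 33 RAB genes with a mean of at least 1 FPKM, in the pccl library (circles) and the USP6 library (squares), grouped by compartment; each group is 1 library, so there are no error bars. RAB5B has the longest line to the right, from 0.139 to 3.15 FPKM, and RAB7A moves from 48.3 to 14.7 FPKM.

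More RAB genes were lower than higher. On the scale log2((USP6 + 1)/(pccl + 1)) of FPKM, 8 of the 33 genes lay at or under -1 (24.2%), against 11.9% of all 9074 genes that passed the same mean. At or over 1 lay 1 gene (3.03%), RAB5B, against 13.8% of all genes. At a limit of 1.5-fold, 0.58 on this scale, 13 were lower and 5 higher, against 24.3% and 26.8% of all genes. The median of the 33 genes was -0.31, and that of all genes 0.05. The 8 lower genes were RAB7A, RAB1B, RAB11A, RAB14, RAB28, RAB1A, RAB10 and RAB27A, which belong to different compartments.

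The ratios went with GC content, and the counts depend on whether that trend is removed. Centred on the trend with the GC content of the transcript, 3 of 33 RAB genes were lower (9.09%) and 2 higher (6.06%), against 9.97% and 9.84% of all genes, and the median of the RAB genes was -0.28 against -0.01. The 3 lower genes were then RAB1B, RAB7A and RAB5C, the last of which lay at -0.98 before centring, and the 2 higher ones RAB5B and RAB33B. With both libraries scaled to the same FPKM sum, 3 RAB genes were lower (8.82%) and 1 higher (2.94%), against 9.54% and 17.3% of all genes, so the larger share of lower RAB genes was not seen at this scaling. The median of all genes was then 0.18, so that the RAB median of -0.20 lay 0.37 below it, close to the 0.36 of the deposited scale. Over all 56 RAB genes with a count, 9 were lower and 1 higher (16.1% and 1.79%), against 5.79% and 6.99% of the 19960 genes with a count. Folds below are ratios of FPKM without a pseudocount, and the range after each is its 95% Clopper-Pearson counting interval. These intervals cover counting error alone, not the spread between cultures.

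**Figure D2:**
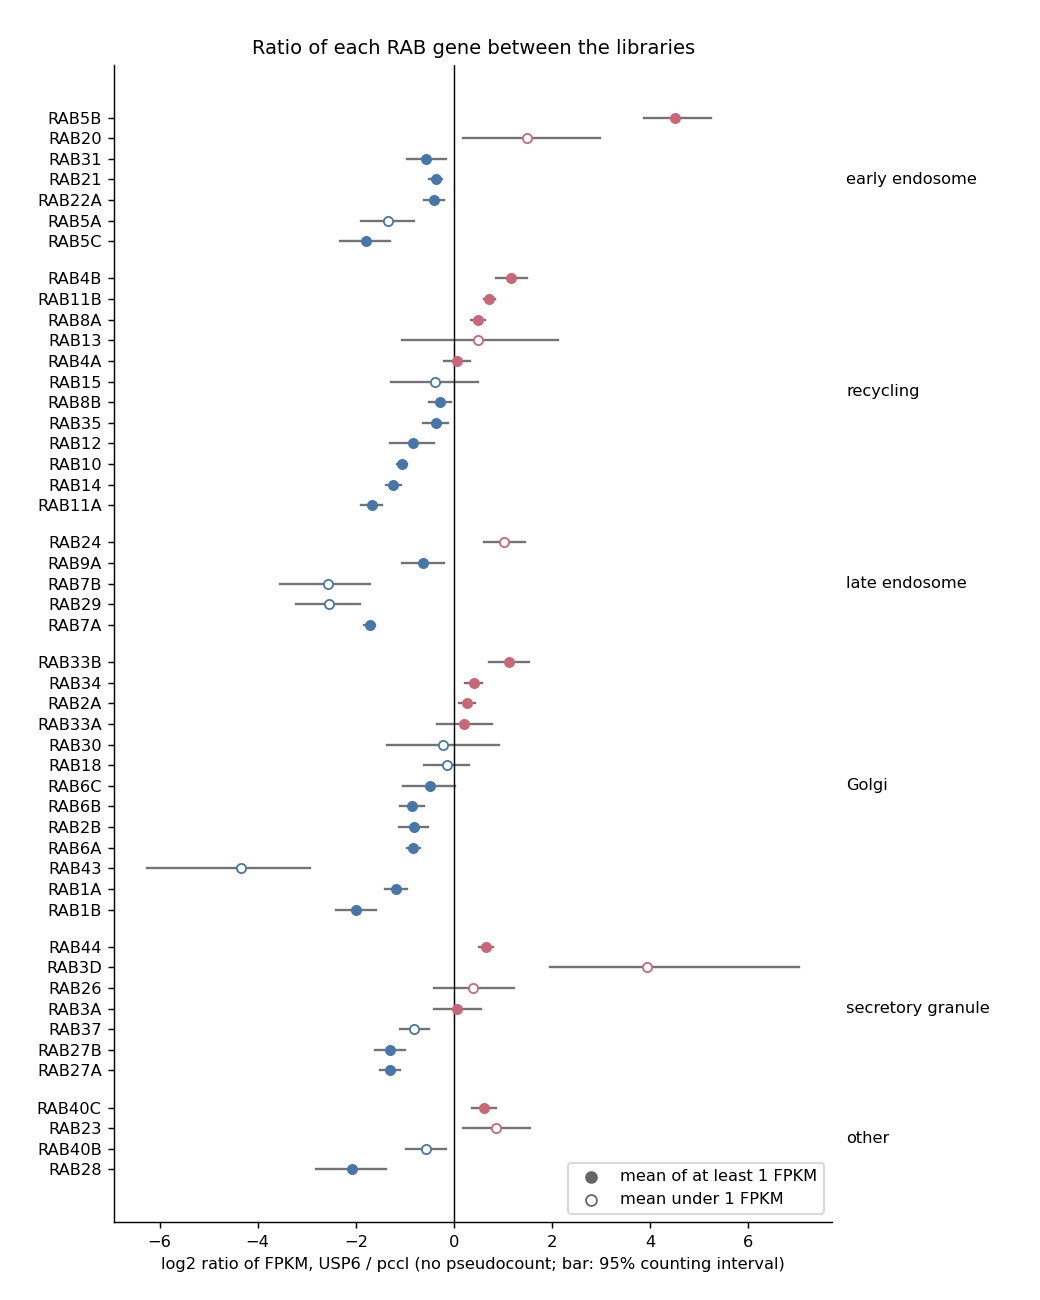
Ratio of FPKM (log2, USP6 over pccl, no pseudocount) of the RAB genes with at least 10 counts in 1 library and a count in both, by compartment; bars are 95% counting intervals, filled points have a mean of at least 1 FPKM. RAB5B and RAB3D lie farthest to the right and RAB43 farthest to the left, with wide bars where counts were few.

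Early endosomes are marked by the 3 RAB5 proteins, which drive fusion of incoming vesicles and the formation of the phosphoinositide that early endosomal tethers bind. RAB5B had 20 counts (0.139 FPKM) under pccl and 462 counts (3.15 FPKM) under USP6, 22.7-fold higher (14.5 to 37.5). The other two were lower. RAB5C had 144 and 42 counts (2.24 and 0.642 FPKM), 3.49-fold lower (2.46 to 5.04). RAB5A, with a mean under 1 FPKM, had 105 and 42 counts (1.19 and 0.467 FPKM), 2.54-fold lower (1.76 to 3.73). The leading RAB5 message was therefore RAB5C in the pccl library, with 62.8% of the RAB5 FPKM, and RAB5B in the USP6 library, with 74.0%. Their sum differed little by comparison, 3.56 FPKM and 4.26 FPKM. RAB5B lies on chromosome 12 from 55973913 to 55996683, RAB5C on chromosome 17 from 42124976 to 42155044 and RAB5A on chromosome 3 from 19947079 to 19985175. No exon of another gene with a count overlapped RAB5B, and 0.756% of the 50-base words of its longest transcript occur in transcripts of other genes.

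The other early endosomal genes with a mean of at least 1 FPKM differed by less. RAB21, which guides integrins from the surface, had 5.11 and 3.95 FPKM, 1.29-fold lower (1.18 to 1.42). RAB22A, which acts on sorting from early endosomes, had 3.71 and 2.79 FPKM, 1.33-fold lower (1.15 to 1.54). Both directions turned with centring on GC content, to log2 ratios of 0.06 and 0.05. RAB31, which acts between the trans-Golgi and endosomes, had 1.38 and 0.938 FPKM. RAB20, a phagosomal RAB with a mean under 1 FPKM, had 7 and 20 counts, 2.81-fold higher (1.14 to 7.86). RAB17, known from epithelial cells, had 0 and 2 counts.

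Of the 5 early endosomal genes with a mean of at least 1 FPKM, 1 was higher and 0 lower at the limit of 1. The shares over all genes were 13.8% and 11.9%. Their median was -0.30, but 0.05 when centred on GC content.

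Recycling and surface delivery made up the largest summed level, 112.9 FPKM (pccl) and 91.6 FPKM (USP6) over 13 genes. Of 10 with a mean of at least 1 FPKM, 3 were lower and 0 higher, beside 11.9% and 13.8% of all genes. None was lower when centred on GC content, and 1 with the same FPKM sum, beside 9.97% and 9.54% of all genes. RAB11 proteins run the recycling endosome. RAB11A (chromosome 15 from 65726054 to 65891991) had 726 and 231 counts (6.80 and 2.13 FPKM), 3.20-fold lower (2.75 to 3.72). RAB11B (chromosome 19 from 8389981 to 8404434) had 879 and 1475 counts (21.3 and 35.1 FPKM), 1.65-fold higher (1.52 to 1.80), a difference that was -0.00 on the log2 scale once centred on GC content. RAB11B made up 75.8% and 94.3% of the RAB11 FPKM. Its antisense gene RAB11B-AS1 had 73 and 122 counts, and whether the counting used strand was not given in the sources used here.

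RAB4 proteins serve the fast recycling route. RAB4A hardly differed, with 3.10 and 3.23 FPKM, and its interval of 0.873 to 1.25 for the ratio USP6 over pccl included 1. RAB4B had 1.80 and 4.02 FPKM, 2.24-fold higher (1.80 to 2.78). RAB8A and RAB8B, which carry cargo to the plasma membrane and cilium, differed by small amounts. RAB8A had 7.33 and 10.3 FPKM, 1.401-fold higher (1.26 to 1.55). RAB8B had 4.67 and 3.82 FPKM, 1.22-fold lower (1.04 to 1.43), which turned to a log2 ratio of 0.10 with centring on GC content.

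RAB10 and RAB14 were among the most abundant and were lower. RAB10, which delivers vesicles to the surface, had 2360 and 1154 counts (38.5 and 18.5 FPKM), 2.08-fold lower (1.94 to 2.23). RAB14, which links the trans-Golgi with endosomes and phagosomes, had 1169 and 504 counts (21.7 and 9.19 FPKM), 2.36-fold lower (2.12 to 2.62). Both stayed below 0 in all 8 alternatives of scaling, pseudocount and centring, RAB10 between -1.15 and -0.68 and RAB14 between -1.30 and -0.78. RAB12 had 3.69 and 2.06 FPKM. RAB35, which recycles cargo from the surface, had 3.76 and 2.91 FPKM, 1.29-fold lower (1.09 to 1.54). RAB13, RAB15 and RAB25, known from polarised epithelia or neurons, had 7, 27 and 1 counts (pccl) and 10, 21 and 0 counts (USP6).

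Late endosomal genes summed to 54.6 and 17.9 FPKM, 3.05-fold lower, most of it RAB7A, which directs maturation of endosomes, phagosomes and autophagosomes. RAB7A (chromosome 3 from 128726122 to 128814796) had 3131 counts (48.3 FPKM) under pccl and 967 counts (14.7 FPKM) under USP6, 3.29-fold lower (3.06 to 3.54). Its log2 ratio was -1.65, and it lay between -1.80 and -1.44 in all 8 alternatives. No exon of another gene with a count overlapped it, and no 50-base word of its longest transcript occurs in transcripts of other genes. RAB9A, which returns mannose 6-phosphate receptors to the Golgi, had 2.29 and 1.48 FPKM, 1.55-fold lower (1.15 to 2.10). The log2 ratio of RAB9A was -0.41, and -0.04 after centring on GC content.

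The remaining genes of this compartment were low, and several differed widely. RAB7B had 76 and 13 counts, 5.95-fold lower (3.28 to 11.7), and RAB29, a RAB of the Golgi and lysosome that recruits the kinase LRRK2, 143 and 25 counts, 5.82-fold lower (3.79 to 9.29). RAB39A had 31 counts (pccl) and 0 counts (USP6). Against a floor of 3 counts in the USP6 library it was at least 10.5-fold lower. RAB24, a RAB of autophagosomes, had 71 and 147 counts, 2.04-fold higher (1.52 to 2.74). Of its 50-base words 46.9% are shared with MXD3, which it overlaps on the same strand and which had 138 and 438 counts, so the reads of the 2 genes may have been divided in either way. RAB32 and RAB38, the RABs of lysosome-related organelles, had 0 and 1 counts under pccl and none under USP6, and RAB42 and RAB9B at most 4 counts.

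Golgi and endoplasmic reticulum genes summed to 49.1 and 34.3 FPKM. Of 10 with a mean of at least 1 FPKM, 2 were lower, RAB1A and RAB1B, and 0 higher, beside 11.9% and 13.8% of all genes. Centred on GC content, 1 was lower and 1 higher, beside 9.97% and 9.84% of all genes, with RAB1A at -0.64. RAB1 proteins act on transport from the endoplasmic reticulum to the Golgi. RAB1A had 524 and 234 counts (9.26 and 4.06 FPKM), 2.28-fold lower (1.95 to 2.67). It overlaps CEP68 on the opposite strand, with 102 and 105 counts. RAB1B (chromosome 11 from 66268533 to 66277492) had 251 and 64 counts (6.94 and 1.74 FPKM), 3.99-fold lower (3.02 to 5.34). Both paralogs were thus lower, and their summed FPKM went from 16.2 to 5.81, 2.79-fold lower. With 61.1% GC, RAB1B had a log2 ratio of -1.54, and of -2.12 after centring.

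RAB6 proteins govern traffic within and back from the Golgi. RAB6A had 1251 and 714 counts (9.79 and 5.49 FPKM), 1.78-fold lower (1.62 to 1.96), and RAB6B 2.58 and 1.42 FPKM, 1.82-fold lower (1.54 to 2.16). RAB6B, with 388 and 217 counts, overlaps SRPRB on the opposite strand, with 720 and 384 counts. RAB6C, a retrogene copy of RAB6A, had 75 and 54 counts, 1.41-fold lower with an interval of 0.983 to 2.04 that includes 1. Of its 50-base words 55.8% occur in other genes, and the split of reads among the copies is uncertain. RAB2A, which acts on Golgi structure and on fusion with lysosomes, had 5.76 and 6.91 FPKM, 1.20-fold higher (1.07 to 1.34), and RAB2B 3.69 and 2.09 FPKM, 1.77-fold lower (1.44 to 2.17). RAB2B overlaps TOX4 on the opposite strand, with 237 and 113 counts.

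RAB33B, which binds the autophagy protein ATG16L1, had 1.20 and 2.61 FPKM, 2.17-fold higher (1.65 to 2.89). RAB33A had 3.29 and 3.81 FPKM on 51 and 60 counts, with an interval of 0.783 to 1.71 that includes 1 and a log2 ratio of -0.23 after centring on GC content. RAB34, a RAB of the Golgi and of macropinocytosis, had 3.07 and 4.06 FPKM, 1.32-fold higher (1.17 to 1.49), which turned to a log2 ratio of -0.25 with centring on GC content. RAB18, which acts on lipid droplets and the endoplasmic reticulum, had 85 and 78 counts and RAB30 16 and 14. RAB36 and RAB6D had at most 3 counts, and RAB19, RAB39B and RAB41 none.

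Secretory granule genes summed to 23.5 and 25.3 FPKM, with RAB27 lower and RAB44 higher. RAB27 proteins dock granules at the plasma membrane and are needed for the release of azurophilic granules in neutrophils. RAB27A (chromosome 15 from 55202966 to 55319113) had 729 and 300 counts (5.65 and 2.28 FPKM), 2.47-fold lower (2.16 to 2.84). RAB27B had 309 and 127 counts (3.10 and 1.25 FPKM), 2.48-fold lower (2.01 to 3.07). The share of RAB27A in the RAB27 FPKM was 64.5% under pccl and 64.6% under USP6. RAB27A overlaps PIGBOS1 on the same strand (214 and 324 counts) and PIGB on the opposite strand (326 and 448 counts), both of which were higher.

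RAB44, a large atypical RAB described in blood cells, had 644 and 1027 counts (11.8 and 18.6 FPKM), 1.57-fold higher (1.42 to 1.73), with a log2 ratio of 0.61 that was 0.10 after centring on GC content. RAB3A, which acts on synaptic vesicles and other regulated secretion, had 74 and 79 counts, with an interval of 0.755 to 1.46 for the ratio that includes 1. It overlaps MPV17L2 on the opposite strand, with 458 and 400 counts. The log2 ratio of RAB3A ranged from -0.48 to 0.15 over 8 alternatives and changed sign in 4. RAB3D, its paralog in secretory cells, had 2 and 31 counts, a ratio of 15.2 with an interval of 3.88 to 131.4. It overlaps TMEM205 on the same strand and CCDC159 on the opposite strand, which had 79 and 246 and 113 and 474 counts. RAB37 had 251 and 146 counts, 1.75-fold lower (1.42 to 2.16), and RAB26 had 24 and 32. RAB3B and RAB3C had no count.

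Genes outside these compartments were few. RAB28, a ciliary RAB, had 91 and 22 counts (2.06 and 0.490 FPKM), 4.21-fold lower (2.62 to 7.04). RAB40C, whose protein joins a cullin ubiquitin ligase, had 2.40 and 3.67 FPKM, 1.53-fold higher (1.30 to 1.80), which turned to a log2 ratio of -0.28 with centring on GC content. It overlaps WFIKKN1 on the same strand, with 6 and 76 counts. RAB40B had 125 and 86 counts, and RAB23, which acts in Hedgehog signalling, 30 and 55. RAB23 overlaps BAG2 on the opposite strand, with 485 and 248 counts. RAB40A had none.

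Some paralog families shared a direction and others did not. RAB1, RAB6 and RAB27 were lower in each member with a mean of at least 1 FPKM. The interval of RAB6C includes 1, however, and its log2 ratio was -0.04 when centred on GC content. Both members of RAB4 and of RAB33 lay above 0, although the intervals of RAB4A and RAB33A include 1, RAB4A turned below 0 under other scalings and RAB33A when centred on GC content. RAB2, RAB5, RAB8 and RAB11 held members on both sides of 0. Centred on GC content, RAB2 and RAB5 still did and RAB33 did too, both RAB8 genes lay above 0, and RAB11B lay at -0.00 beside RAB11A at -0.96. Summed over the family, FPKM was 28.1 and 37.3 for RAB11, 4.89 and 7.25 for RAB4, 9.45 and 8.99 for RAB2, 14.4 and 8.31 for RAB6, and 8.75 and 3.54 for RAB27. For RAB11 the sum is higher although RAB11A alone is 3.20-fold lower, since RAB11B had most of the FPKM.

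**Figure D3:**
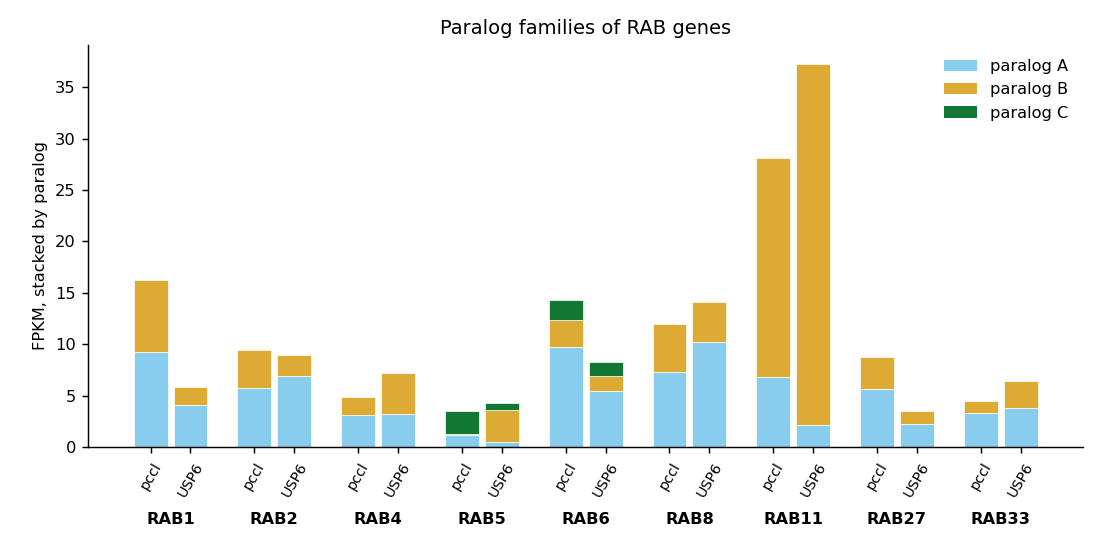
FPKM of RAB paralog families in the pccl and the USP6 library, 1 library each, stacked by paralog (A, B and C). The RAB5 bars are close in height, 3.56 and 4.26 FPKM, with RAB5C leading in the pccl library and RAB5B in the USP6 library, whereas RAB1 goes from 16.2 to 5.81 FPKM with both paralogs smaller.

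GC content went with the ratios among the RAB genes as among all genes. Across the 33 RAB genes, GC content of the longest transcript and log2 ratio had a Spearman's rho of 0.34, and across 9033 genes one of 0.41, both descriptions across genes of the same 2 libraries. The RAB transcripts were poorer in GC, with a median of 43.2% (35.9% to 64.4%) against 48.3% for all genes. Of 21 RAB genes under that overall median, 17 had a log2 ratio below 0, and 7 of the 21 lay at or under -1. The share of all genes on that side at or under -1 was smaller, 18.05%. Of the 12 RAB genes at or over that median, 8 had a ratio above 0, and RAB1B alone lay at or under -1, against 5.84% of all genes there. Over all genes the median log2 ratios on the same sides were -0.29 and 0.38, and over the RAB genes -0.60 and 0.24. The share of all genes below or above 0 was not counted on either side. Of 8 pairs of paralogs, the GC-richer gene had the higher log2 ratio in 4: RAB11, RAB4, RAB8 and RAB6. In RAB1, RAB2, RAB27 and RAB33 it had the lower one. Centring on GC content changed the sign of 8 of the 33 genes: RAB11B, RAB34, RAB33A, RAB40C and RAB3A went below 0, and RAB21, RAB22A and RAB8B above it. The part of GC content in these differences was not tested.

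**Figure D4:**
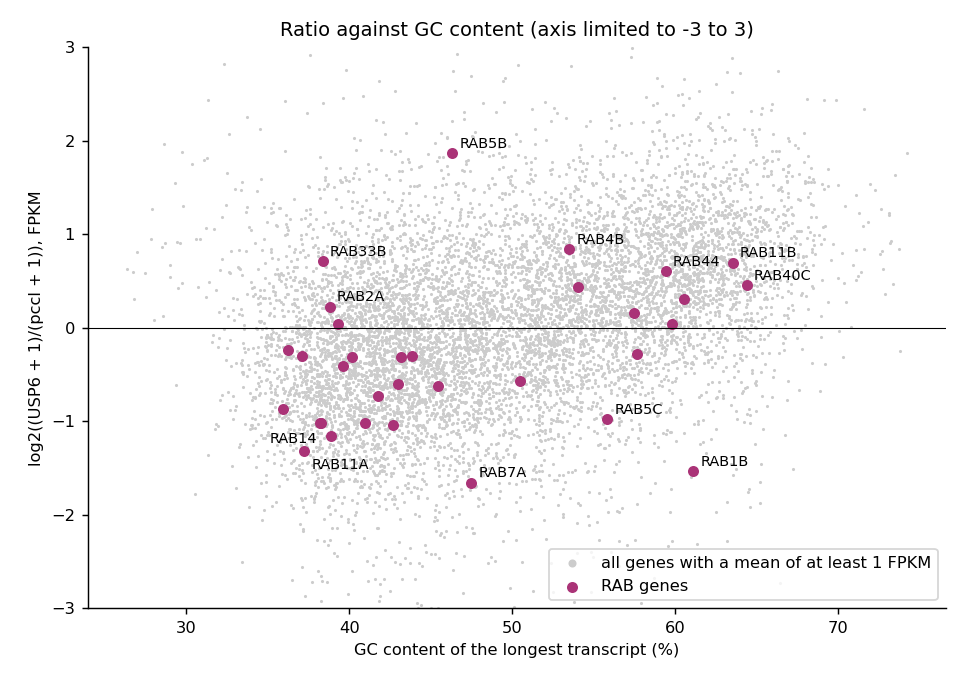
Ratio on the scale log2((USP6 + 1)/(pccl + 1)) of FPKM against the GC content (%) of the longest transcript, for RAB genes (large points) and all genes with a mean of at least 1 FPKM (small points); 38 genes beyond the axis limits are not drawn. Most RAB genes lie at the GC-poor side below 0, RAB1B and RAB5C lie low among GC-rich genes, and RAB5B lies high.

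Reads of some members could have been assigned to a readthrough gene that carries their exons. RAB43, a Golgi RAB, had 80 counts (pccl) and 4 counts (USP6), 20.3-fold lower (7.64 to 76.5). ISY1-RAB43, a readthrough gene that contains 88.5% of the 50-base words of the RAB43 transcript, had 0 and 120 counts. Their sum was 80 and 124 counts, which is 1.52-fold higher (1.14 to 2.04), where RAB43 alone was lower. RAB4B shares 49.7% of its words with the readthrough gene MIA-RAB4B, but MIA-RAB4B and RAB4B-EGLN2 had 0 counts under pccl and 5 and 4 under USP6. With both added, RAB4B had 124 and 291 counts, a ratio of 2.31 (1.86 to 2.87), close to that of RAB4B alone. RAB5C shares 36.2% of its words with AC099811.2, with 19 and 4 counts, and their sum had a ratio of 0.277 (0.195 to 0.387).

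Genes that prenylate RAB proteins and draw them from membranes were lower in part. All 8 listed genes had a mean of at least 1 FPKM. Of these 3 were lower and 0 higher at the limit of 1, beside 11.9% and 13.8% of all genes, and the median was -0.48. CHM and CHML encode the REP escort proteins that present a new RAB to the prenylating enzyme. CHM had 245 and 40 counts (1.83 and 0.294 FPKM), 6.23-fold lower (4.45 to 8.94). CHML had 601 and 209 counts (6.90 and 2.36 FPKM), 2.93-fold lower (2.50 to 3.44), and overlaps OPN3 with 79 and 42 counts. The subunits of the enzyme, RAB geranylgeranyl transferase, went opposite ways. RABGGTA had 1.93 and 4.78 FPKM, 2.48-fold higher (2.13 to 2.89), and RABGGTB, named after its values were seen, 4.39 and 2.36 FPKM, 1.86-fold lower (1.64 to 2.12). GDI2, which draws RAB proteins from membranes, had 11.04 and 4.99 FPKM, 2.21-fold lower (1.98 to 2.48). Centred on GC content, no gene of this list lay past -1, beside 9.97% of all genes, the lowest being CHML at -0.89 and CHM at -0.78.

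Exchange factors lay around 0. Of 51 listed genes, 32 had a mean of at least 1 FPKM, 3 of them higher and 1 lower, with a median of -0.01. The shares over all genes were 13.8% and 11.9%. Centred on GC content, 2 were higher and 1 lower, beside 9.84% and 9.97% of all genes, with DENND1C at 0.78. RIN3, which activates RAB5 and RAB31, had 114 and 968 counts (0.668 and 5.58 FPKM), 8.35-fold higher (6.87 to 10.2). DENND1C, an exchange factor for RAB35, had 13.4 and 34.3 FPKM, 2.55-fold higher (2.41 to 2.71), and TRAPPC12, a subunit of a TRAPP complex, 2.05 and 5.30 FPKM, 2.59-fold higher (2.29 to 2.93). HPS1, a subunit of the exchange factor for RAB32 and RAB38, had 6.48 and 1.78 FPKM, 3.63-fold lower (3.13 to 4.23), in cells where those RAB genes had at most 1 count. HPS4, its partner subunit, named after its values were seen, went the other way. It had 154 and 233 counts and a mean under 1 FPKM, 1.49-fold higher (1.21 to 1.84).

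GTPase-activating proteins with a TBC domain had a median that depended on GC content. Of 37 listed genes, 21 had a mean of at least 1 FPKM, 5 of them higher and 3 lower, beside 13.8% and 11.9% of all genes. The median was 0.24, and -0.00 when centred on GC content. TBC1D30, SGSM3, TBC1D10B, SGSM2 and TBC1D17 were the higher ones. TBC1D30, which acts on RAB8, had 0.430 and 2.57 FPKM, 5.97-fold higher (4.47 to 8.12). TBC1D10B, which acts on RAB35 and RAB27, had 4.52 and 11.01 FPKM, 2.44-fold higher (2.21 to 2.69). SGSM3 was 3.77-fold, SGSM2 3.39-fold and TBC1D17 2.99-fold higher, and all 3 overlap expressed genes on the opposite strand.

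TBC1D13, which acts on RAB35, had 188 and 4 counts (2.17 and 0.0453 FPKM), 47.8-fold lower (18.4 to 177.3). TBC1D15, which acts on RAB7, had 2.74 and 0.764 FPKM, 3.58-fold lower (2.88 to 4.48). TBC1D4, known from insulin-driven traffic through RAB10, had 3.20 and 1.09 FPKM, 2.93-fold lower (2.39 to 3.60). USP6NL, named for its likeness to the N-terminal part of USP6 and known to act on RAB5, had 189 and 148 counts, 1.30-fold lower (1.04 to 1.62). Centred on GC content, TBC1D30 at 1.58 alone stayed at or over 1 and TBC1D13 at -2.02 alone stayed at or under -1 in this list. The shares over all genes were then 9.84% and 9.97%.

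Effectors spread from -1.64 to 2.02. Of 39 listed genes, 18 had a mean of at least 1 FPKM, 3 of them higher and 3 lower, beside 13.8% and 11.9% of all genes. At the 1.5-fold limit 3 were higher and 8 lower (16.7% and 44.4%, against 26.8% and 24.3% of all genes). The median was 0.06, and -0.25 when centred on GC content. EEA1, the tether that binds RAB5 on early endosomes, had 711 and 139 counts (5.32 and 1.023 FPKM), 5.203-fold lower (4.33 to 6.29). RABEP1, rabaptin-5, had 6.78 and 2.66 FPKM, 2.55-fold lower (2.21 to 2.95), and overlaps NUP88 on the opposite strand (363 and 430 counts). Its paralog RABEP2 had 1.64 and 7.56 FPKM, 4.60-fold higher (3.87 to 5.49), and overlaps ATP2A1 on the opposite strand (57 and 132 counts).

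UNC13D, the priming factor Munc13-4 that RAB27A recruits to granules, had 417 and 2173 counts (2.92 and 14.9 FPKM), 5.12-fold higher (4.61 to 5.70). SYTL1, a synaptotagmin-like RAB27 effector, had 2.98 and 10.8 FPKM, 3.64-fold higher (3.24 to 4.11). These 2 effectors were thus higher where RAB27A and RAB27B were lower. The other synaptotagmin-like genes of the list had at most 26 counts in a library. Centred on GC content, RAB27A lay at -0.64 and RAB27B at -0.54. RILPL2, which binds phosphorylated RAB8 and RAB10, had 14.5 and 5.44 FPKM, 2.67-fold lower (2.39 to 2.998). After centring on GC content, UNC13D was at 1.34, SYTL1 at 0.74, RABEP2 at 0.87, RILPL2 at -1.42, EEA1 at -1.38 and RABEP1 at -0.79. LRRK1 was the gene with a mean of at least 1 FPKM among 3 kinase and phosphatase genes that act on RAB proteins, with 3.83 and 4.304 FPKM.

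**Figure D5:**
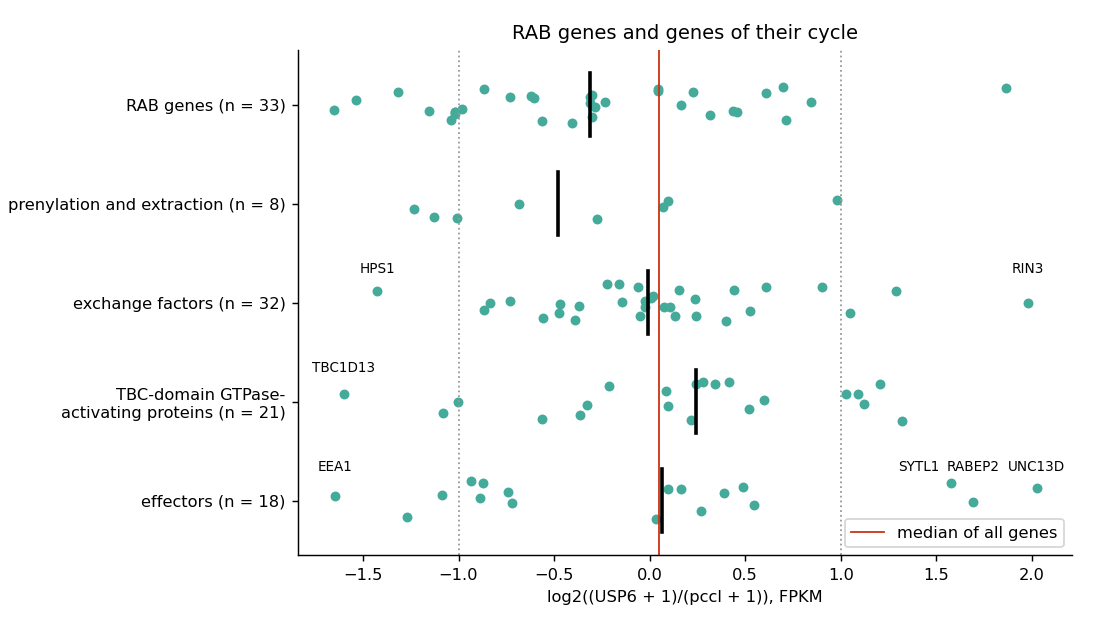
Ratio on the scale log2((USP6 + 1)/(pccl + 1)) of FPKM for the 33 RAB genes and 4 lists of genes that act on them, each point 1 gene with a mean of at least 1 FPKM, black bars the median of the list, the solid line the median of all genes (0.05) and dotted lines 1 and -1. The bars of the RAB genes and of the prenylation list lie left of the line for all genes, at -0.31 and -0.48, and that of the TBC-domain list right of it, at 0.24 (-0.00 when centred on GC content).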

How the data were processed

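The deposited table gives, per gene, a whole-number read count and an FPKM value for each library. The counts deposited by the authors sum to 12306442 (pccl) and 12518795 (USP6). The FPKM values deposited by the authors are scaled to gene length and to that total: the length implied by count and FPKM was the same in both libraries within 0.1% for 99.9% of 16017 symbols with a count in both. HISAT2 2.0.4, StringTie 1.3.3b and edgeR are named in the submitters' processing notes, without roles. For build, annotation and strandedness, the sources used here give nothing. Of the 63 RAB loci, 56 were identical to those of GENCODE release 29 (GRCh38), and coordinates are as listed.

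The 50868 rows were summed by symbol. Genes with a mean of at least 1 FPKM over both libraries were described by log2((USP6 + 1)/(pccl + 1)), a pseudocount of 1 FPKM, and counted at or past 1 or -1. This scale understates the differences of low genes. No test was made, since 1 library in each group leaves 0 residual degrees of freedom. Reads copied by PCR are not independent, so counting intervals may be too narrow. Compartments and the 5 lists of regulators came from textbook roles. The members and lists were chosen with earlier results of these data known. Every member is accounted for, those under 10 counts by their counts alone. Of each list of regulators, genes at or past 1 or -1 and the 4 of largest absolute ratio could be named, besides USP6, USP6NL and GDI2. RABGGTB and HPS4 were added as partners of a named subunit after their values were seen. Some results are not reported here.

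GC content is that of the longest GENCODE transcript, and 41 genes past the mean had none. Centring used a lowess trend (span 0.3). Shared words of 50 bases were searched on the transcript strand. Alternatives were pseudocounts of 0.1, 0.5 and 5, other filters, 4 scalings (among them the trimmed mean of M values), a 1.5-fold limit and centring on GC content. The steps were tested on simulated data. Software was Biopython 1.88, statsmodels 0.14.6, SciPy 1.17.1, pandas 2.3.3, NumPy 2.4.6, matplotlib 3.10.9 and Python 3.11.15, with edgeR 4.0.16 in R 4.3.3.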

Additional observations from a re-analysis of the deposited data

How the results depend on the processing

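The RAB median stayed below 0 in all 12 alternatives, from -0.73 (mean of at least 5 FPKM, which leaves 9 RAB genes) to -0.16 (pseudocount 5). The counts moved more. Higher RAB genes numbered 1 as reported, 3 with a pseudocount of 0.1 and 0 with a pseudocount of 5. They numbered 0 with a mean of at least 5 FPKM, 5 at the 1.5-fold limit and 2 when centred on GC content. The higher share of all genes was 13.8%, 20.6%, 4.01%, 18.05%, 26.8% and 9.84%, in that order. The RAB shares were lower at each of these settings, 3.03%, 9.09%, 0%, 0%, 15.2% and 6.06%. Lower RAB genes numbered 1 with a pseudocount of 5, 4 with a mean of at least 5 FPKM, 3 with the same FPKM sum, 13 at the 1.5-fold limit and 3 when centred on GC content, against 8 as reported. Over all genes the lower share at these settings was 3.32%, 14.2%, 9.54%, 24.3% and 9.97%, against RAB shares of 3.03%, 44.4%, 8.82%, 39.4% and 9.09%. With depth from nuclear genes 12 of 41 were lower (29.3%), against 16.1% of all genes. With the trimmed mean 9 of 33 were lower (27.3%), against 13.9% of all genes. Adding the readthrough genes of RAB43 and RAB4B was chosen after seeing the data, and left 1 higher and 8 lower. The median of the TBC-domain list ranged from -0.00 to 0.40, that of the effectors from -0.25 to 0.27 and that of the exchange factors from -0.08 to 0.48. No paired analysis was possible because each group holds 1 library. Members with few counts, such as RAB3D, have wide intervals, and the spread between cultures is unknown.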
